A study of Saccharomyces cerevisiae with 12 samples.

Results

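The alcohol dehydrogenase family of budding yeast comprises 9 genes here (ADH1 to ADH7, SFA1 and BDH1) of the 7192 features in a table of RNA-seq read counts. They were compared between wild-type Saccharomyces cerevisiae incubated with Cyclina sinensis lectin, a clam protein described as specific for N-acetylgalactosamine and mannose, and wild-type cells that got no treatment. Both groups, of 6 samples each, were grown in rich glucose medium to the middle of logarithmic growth, and the design text calls the samples of a group biological replicates. The strain, the lectin dose, the exposure time and any mock treatment were not given in the sources used here. The members were listed by systematic name, and the family was chosen on the lectin response of ADH4, which had the lowest log2 fold change of all tested genes in these same samples. The changes of the members with lectin are therefore a description and are given without p-values. Where a member is said to be called, to have risen or to have fallen, this only describes the same samples and is no independent evidence.

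Alcohol dehydrogenases interconvert alcohols and aldehydes or ketones with a nicotinamide cofactor. In fermenting yeast, Adh1 turns acetaldehyde into ethanol and so returns NADH to the NAD+ that glycolysis needs. Adh1, Adh2, Adh3 and Adh5 are related zinc enzymes, while Adh4 belongs to a different sequence class. When zinc is scarce, the activator Zap1 is known to raise ADH4 and to lower ADH1 and ADH3 by driving non-coding transcription upstream of them.

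Total counts ran from 17303313 to 21354011 per sample, with lectin 5 the largest library. A level of 3 counts corresponded to 0.14 to 0.173 CPM (a gene's count scaled to the library total), a floor that covers counting error only. All 9 members lay far above it, and all 9 passed the filter on low counts that left 6237 genes. Normalised counts are counts divided by the DESeq2 size factor of the sample, and a gene is said to be called, to have risen or to have fallen where its DESeq2 Wald test gave an adjusted p under 0.05 over all tested genes. In these terms 5 of the 9 members were called, 4 higher and 1 lower with lectin. Over all tested genes 31.5% were called, 15.4% higher and 16.1% lower. The groups did not overlap in 3 members, against 12.6% of all tested genes. The median log2 fold change was 0.08 over the members and 0.0017 over all tested genes. As the contrast was used in choosing the family, nothing is read from these counts.

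ADH4 (YGL256W), the zinc-responsive isozyme gene, fell with lectin to 0.23 times its control level. It had 11318, 11986, 12130, 12535, 11864 and 11112 normalised counts in lectin 2, 3, 4, 5, 6 and 8, against 53142, 51035, 48235, 55045, 53734 and 50956 in control 2, 3, 4, 6, 7 and 8. The lectin samples lay close together, and each was far below the lowest control sample. The means were 11824 ± 527 normalised counts with lectin and 52024 ± 2440 in the control (SD, n = 6 each), a log2 fold change of -2.14 ± 0.043 (SE). Fewer cells that express a gene and less of its RNA per cell cannot be told apart in such bulk samples. By mean normalised count, ADH4 ranked 249 among all features with lectin and 26 in the control. The spread between samples was alike, at 4.46% of the mean with lectin and 4.69% in the control. The gene lies on chromosome VII at 15159 to 16307 on the plus strand (R64, RefSeq annotation), a single coding exon that overlaps no other annotated gene.

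ADH1 (YOL086C), the main ethanol-forming isozyme gene, rose on average, but not in every sample. It had 108436, 69064, 92149, 115337, 67950 and 97820 normalised counts in lectin 2, 3, 4, 5, 6 and 8, against 67681, 62494, 63606, 75505, 72585 and 71576 in control 2, 3, 4, 6, 7 and 8. Lectin 2, 4, 5 and 8 were above every control sample, while lectin 3 and 6 lay inside the control range. The means were 91793 ± 19763 normalised counts with lectin and 68908 ± 5195 in the control (SD, n = 6 each), a log2 fold change of 0.41 ± 0.134 (SE). The spread reached 21.5% of the mean with lectin, against 7.54% in the control. ADH1 ranked 8 by mean normalised count with lectin and 19 in the control. It lies on chromosome XV at 159548 to 160594 on the minus strand.

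ADH2 (YMR303C), the glucose-repressed isozyme gene known for ethanol use, was high and low in the same lectin samples as ADH1. It had 28785, 20591, 27024, 26645, 18059 and 26772 normalised counts in lectin 2, 3, 4, 5, 6 and 8, against 21289, 18212, 15436, 15340, 18634 and 18370 in control 2, 3, 4, 6, 7 and 8. Again lectin 2, 4, 5 and 8 exceeded all control samples and lectin 3 and 6 did not. The log2 fold change was 0.46 ± 0.107 (SE), from 24646 ± 4269 normalised counts with lectin and 17880 ± 2235 in the control (SD, n = 6 each). ADH2 lies on chromosome XIII at 873291 to 874337 on the minus strand.

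Reads of ADH1 and ADH2 can be hard to assign, because the coding sequences were 88.8% identical, with 117 mismatches over 1047 bases. Of the 50-base stretches of ADH1, 14.0% also occurred unchanged in ADH2, and how the authors treated reads that fit both genes was not stated. None of the 50-base stretches of the other 7 members was found again in the genome. The first 120 coding bases of both genes are shown because assignment of a read between them rests on such differences, with the 15 bases that differ in capitals (R64, RefSeq genome, minus strand of XV:160475-160594 for ADH1 and of XIII:874218-874337 for ADH2).
ADH1: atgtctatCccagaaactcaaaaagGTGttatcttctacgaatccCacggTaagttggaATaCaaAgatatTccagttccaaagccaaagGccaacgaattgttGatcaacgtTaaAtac
ADH2: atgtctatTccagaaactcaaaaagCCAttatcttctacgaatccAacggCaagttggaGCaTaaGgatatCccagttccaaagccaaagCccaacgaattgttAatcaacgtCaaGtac
ADH2 counts were 26.5%, 29.8%, 29.3%, 23.1%, 26.6% and 27.4% of those of ADH1 in lectin 2, 3, 4, 5, 6 and 8, and ran from 20.3% to 31.5% in the control samples. The ratio of both genes thus covered much the same range in the groups, at 27.1% ± 2.41 with lectin and 26.1% ± 3.88 in the control (SD, n = 6 each). Summed over both genes, normalised counts were 116439 ± 23672 with lectin and 86788 ± 5437 in the control (SD, n = 6 each). Lectin 3 at 89655 and lectin 6 at 86008 again lay inside the control range of 79042 to 91219.

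ADH3 (YMR083W), the mitochondrial isozyme gene, was not called. It had 8332, 8005, 8090, 9028, 7552 and 7825 normalised counts in lectin 2, 3, 4, 5, 6 and 8, against 8988, 8563, 8298, 8991, 8713 and 8289 in control 2, 3, 4, 6, 7 and 8. Lectin 3, 4, 6 and 8 lay below every control sample and lectin 5 lay above every one. The log2 fold change was -0.09 ± 0.046 (SE). Without lectin 5 it was -0.12 and ADH3 was called lower.

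SFA1 (YDL168W) encodes an enzyme that acts on long-chain and fusel alcohols and on the glutathione adduct of formaldehyde, and it rose slightly. Its normalised counts were 23637, 23802, 25221, 23094, 23106 and 23045 in lectin 2, 3, 4, 5, 6 and 8, against 20806, 21334, 21813, 19543, 21527 and 21240 in control 2, 3, 4, 6, 7 and 8. Every lectin sample was above every control sample, by a small margin. The log2 fold change was 0.17 ± 0.037 (SE), a difference of 12.4%.

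BDH1 (YAL060W), the gene of the butanediol dehydrogenase that interconverts acetoin and butanediol, rose by 30.7%. Its normalised counts were 9275, 9724, 10524, 8973, 9796 and 9407 in lectin 2, 3, 4, 5, 6 and 8, against 7194, 7331, 7172, 6892, 8110 and 7445 in control 2, 3, 4, 6, 7 and 8. The groups did not overlap. The log2 fold change was 0.39 ± 0.049 (SE), close in size to that of ADH1 but with a smaller spread between lectin samples, 5.58% of the mean against 21.5% for ADH1. Its neighbour and paralogue BDH2 went the other way, as described further on.

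ADH5, ADH6 and ADH7 were not called, and the groups overlapped in each. ADH5 (YBR145W), a less abundant relative of ADH1, had 3348 to 3604 normalised counts in lectin samples and 3273 to 3483 in control samples, with a log2 fold change of 0.03 ± 0.033 (SE). ADH6 (YMR318C) and ADH7 (YCR105W) encode enzymes that use NADPH and prefer aldehydes such as cinnamaldehyde. ADH6 ran from 3512 to 4269 with lectin and from 3463 to 3946 in the control, with a log2 fold change of 0.08 ± 0.055 (SE). ADH7 ran from 911 to 1011 with lectin and from 851 to 968 in the control, with a log2 fold change of 0.04 ± 0.049 (SE). The remaining members are also single coding exons that overlap no other annotated gene (R64, RefSeq): ADH3 on chromosome XIII at 434788 to 435915, ADH5 on II at 533762 to 534817, ADH7 on III at 309070 to 310155, SFA1 on IV at 159604 to 160764 and BDH1 on I at 35155 to 36303, all on the plus strand. ADH6 lies on XIII at 911061 to 912143 on the minus strand. ADH5 differed least between samples, with an SD of 2.84% of the mean with lectin and 2.51% in the control.

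**Figure D1:**
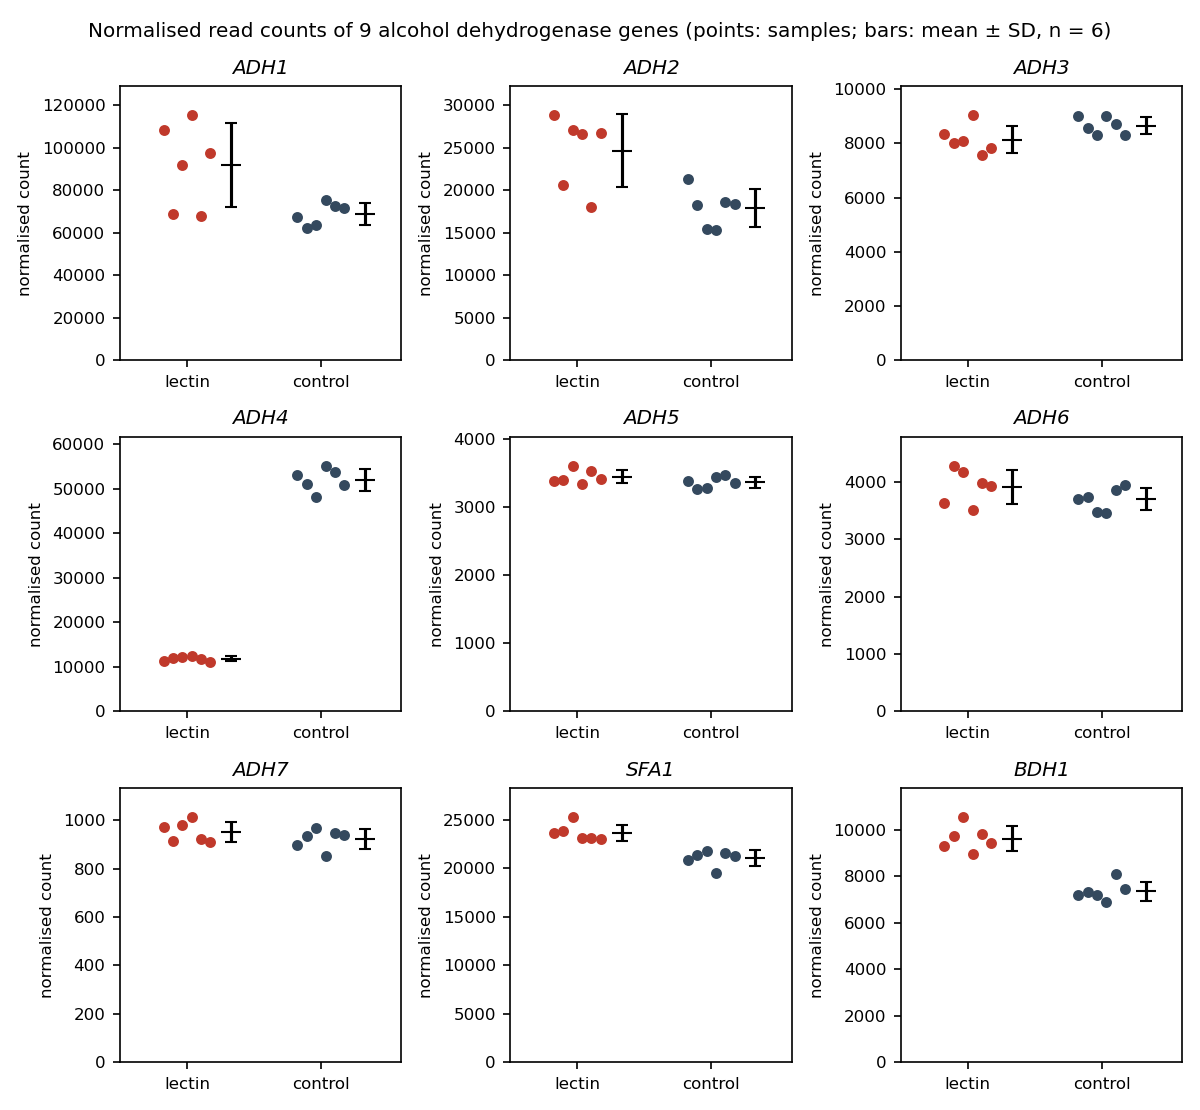
Normalised read counts (vertical axes, from 0) of the 9 genes in 6 lectin (red) and 6 control (dark) samples; each point is a sample and the bars give the mean ± SD. ADH4 fell to 11112 to 12535 with lectin, against 48235 to 55045 in the control. SFA1 and BDH1 were higher without overlap, and ADH1 and ADH2 were above all control samples in 4 of 6 lectin samples.

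Levels between genes were compared as CPM per kilobase of coding length. With lectin, the order was ADH1 (4746 ± 974), ADH2 (1275 ± 211), SFA1 (1105 ± 35.3), ADH4 (558 ± 21.1), BDH1 (454 ± 27.1), ADH3 (391 ± 18.8), ADH6 (196 ± 16.2), ADH5 (177 ± 6.42) and ADH7 (47.5 ± 1.46; SD, n = 6 throughout). In the control it was ADH1 (3571 ± 217), ADH4 (2457 ± 76.0), SFA1 (985 ± 49.8), ADH2 (927 ± 114), ADH3 (416 ± 12.1), BDH1 (348 ± 17.5), ADH6 (185 ± 9.29), ADH5 (173 ± 1.87) and ADH7 (46.2 ± 2.66; SD, n = 6 throughout). ADH4 was thus at rank 4 with lectin and at rank 2 in the control, and BDH1 and ADH3 changed places. Neighbours in the order whose sample ranges overlapped were ADH2 and SFA1, BDH1 and ADH3, and ADH6 and ADH5 with lectin. In the control they were SFA1 and ADH2, and ADH6 and ADH5. All other neighbours were separate in their ranges.

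The mean summed level of the 9 genes differed little between the groups, although its make-up did. It was 8950 ± 1125 CPM per kilobase with lectin and 9108 ± 236 in the control (SD, n = 6 each), with overlap. Lectin samples ran from 7511 to 10070, beyond the control range of 8785 to 9295 at both ends. The mean level of ADH4 fell by 1899 on this scale, while the means of ADH1, ADH2, SFA1 and BDH1 were higher by 1175, 348, 120 and 106. Without ADH4, the other 8 genes summed to 8392 ± 1133 with lectin and 6651 ± 191 in the control (SD, n = 6 each). On this scale the lowest lectin sample, lectin 6 at 6938, lay just above the highest control sample, at 6837. This narrow separation depended on the scaling. With DESeq2 normalised counts per kilobase in place of CPM, lectin 6 lay below control 7 and 8, so the groups overlapped. ADH4 held 6.33% ± 0.969 of the family's level with lectin and 27.0% ± 0.607 in the control (SD, n = 6 each). ADH1 held 52.6% ± 4.49 with lectin and 39.2% ± 1.71 in the control (SD, n = 6 each). As ADH4 is part of the sum, its fall by itself raises the share of every other member. In lectin 3 and 6, where normalised counts of ADH1 lay inside the control range, ADH1 still held 47.1% and 47.9%.

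The balance of ADH4 with the zinc-dependent isozyme genes ADH1 and ADH3 was taken per length within each sample, which needs no scaling between libraries. Of the summed level of these 3 genes, ADH4 held 8.15%, 12.5%, 9.98%, 8.45%, 12.6% and 8.79% in lectin 2, 3, 4, 5, 6 and 8, against 38.9%, 39.8%, 38.1%, 37.4%, 37.8% and 36.9% in control 2, 3, 4, 6, 7 and 8. The share was 10.1% ± 2.01 with lectin and 38.2% ± 1.03 in the control (SD, n = 6 each), and the groups lay far apart. As the family was chosen on the fall of ADH4, this lower share follows largely from the choice. The same holds for the ratios of ADH4 to ADH1 and ADH3 given next. Within the lectin group it was highest in lectin 3 and 6, the samples with the lowest ADH1 level.

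Set against ADH1 alone, the log2 ratio of ADH4 was -3.06 ± 0.33 with lectin and -0.54 ± 0.07 in the control (SD, n = 6 each), a difference of -2.52. ADH1 stood at 6.29 to 10.5 times the level of ADH4 in lectin samples and at 1.34 to 1.54 times in control samples. Against ADH3, the log2 ratio of ADH4 was 0.51 ± 0.08 with lectin and 2.56 ± 0.04 in the control (SD, n = 6 each), a difference of -2.05. ADH4 stood at 1.33 to 1.54 times the level of ADH3 in lectin samples and at 5.71 to 6.05 times in control samples, so that its level stayed above that of ADH3 in all samples. The log2 ratio of ADH3 to ADH1 was -3.58 ± 0.26 with lectin and -3.10 ± 0.10 in the control (SD, n = 6 each), with overlap.

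**Figure D2:**
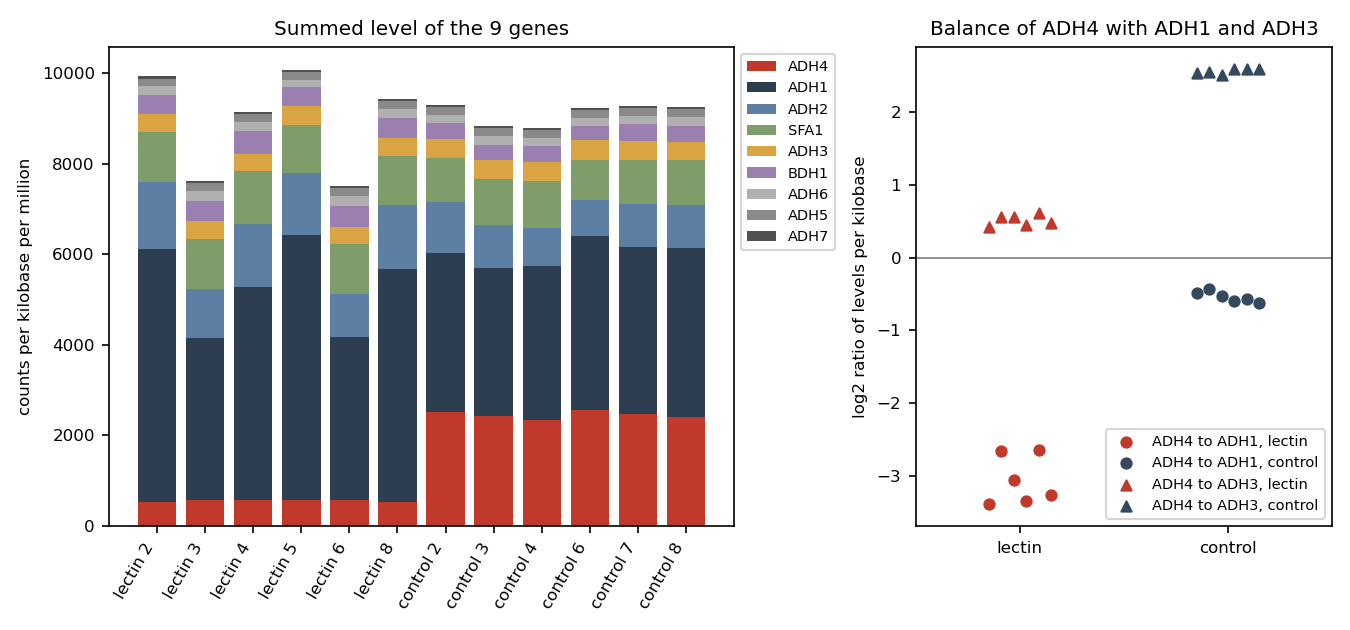
Left, levels of the 9 genes in CPM per kilobase of coding length, stacked for each sample (6 lectin, then 6 control). Right, log2 ratios of the ADH4 level to those of ADH1 (circles) and ADH3 (triangles) per sample. The stacks reach 7511 to 10070 with lectin and 8785 to 9295 in the control. Their ADH4 part is 531 to 580 with lectin and 2348 to 2558 in the control, and both ratios are lower in every lectin sample. The family was chosen on the fall of ADH4, so these differences follow largely from the choice.

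The Zap1 genes other than ADH4 were examined next, from a list of 21. With lectin, 12 fell, 2 rose and 7 were not called, so 57.1% of the list fell against 16.1% of all tested genes. The median log2 fold change of the list was -0.17. VEL1 (YGL258W), a gene of unknown function, had a log2 fold change of -1.49 ± 0.079 (SE; DESeq2 adjusted p = 3.4e-75). ZRT1 (YGL255W), the high-affinity zinc transporter gene, had 4789 ± 241 normalised counts with lectin and 12602 ± 755 in the control (SD, n = 6 each), a log2 fold change of -1.40 ± 0.049 (SE; DESeq2 adjusted p = 8.9e-178). ZAP1 (YJL056C) itself, which Zap1 is known to activate, had 814 ± 68.8 with lectin and 1221 ± 99.7 in the control (SD, n = 6 each), a log2 fold change of -0.58 ± 0.069 (SE; DESeq2 adjusted p = 1.6e-15). That ADH4 had a more negative log2 fold change than any of the 21 follows from its choice as the lowest of all tested genes. The low-affinity transporter gene ZRT2 stood at 0.02 and was not called. These genes were listed with earlier results of the same samples known, so their direction is no independent evidence.

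The zinc-responsive element that Zap1 binds was sought upstream of the members as ACCTTNAAGGT, which reads the same on both strands, in the 1200 bases before each start codon. The window length was set after the ADH1 match was seen. An exact match was found for 14 of 6021 genes with a full window (0.233%), and a match with at most 1 mismatch for 235 (3.9%). Among the 9 members, ADH1 had an exact match 1006 to 996 bases before its start codon, in the gap between ADH1 and YOL085C. The same letters lie 766 to 756 bases before the start codon of PHM7, on the other strand, which was not called. ADH4 had a match with 1 mismatch 518 to 508 bases before its start codon, A8C counted from the first base of the motif. No match with at most 1 mismatch was found for the other 7. The stretches are shown beside the exact match upstream of ZRT1, with the bases that match the motif, and the free middle base, in capitals (R64, RefSeq genome; ADH1 minus strand of XV:161570-161620, ADH4 plus strand of VII:14621-14671, ZRT1 plus strand of VII:20754-20804).
ADH1: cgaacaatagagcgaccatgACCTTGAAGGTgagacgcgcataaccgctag
ADH4: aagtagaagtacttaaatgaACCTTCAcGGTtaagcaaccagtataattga
ZRT1: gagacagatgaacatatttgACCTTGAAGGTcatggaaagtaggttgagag
The ADH1 and ZRT1 stretches carry the same 11 motif bases, while ADH1 rose and ZRT1 fell. ZRT1 also had a match with 1 mismatch (T4C) 319 to 309 bases before its start codon. ZAP1, which fell, had a match with 1 mismatch (T4C) 144 to 134 bases before its start codon, and VEL1, which fell, had no match with at most 1 mismatch. A match of letters is a description of the sequence and not a bound site.

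ADH4 and ZRT1 are also neighbours on chromosome VII, and the genes around ADH4 were among those that changed. Of the nearest 2 protein-coding genes on either side, VEL1, MNT2 (a mannosyltransferase gene, log2 fold change -0.56 ± 0.050 SE) and ZRT1 fell, and FZF1 (a sulfite response regulator gene, 0.51 ± 0.066 SE) rose. Over all 9 members, 36 such neighbours were tested, of which 6 rose, 10 fell and 20 were not called. Over all tested genes 15.4% rose and 16.1% fell, and whether the neighbours differ from other genes was not tested. Next to BDH1, the gene BDH2 (YAL061W), 453 bases away on the same strand, fell with a log2 fold change of -0.60 ± 0.066 (SE; DESeq2 adjusted p = 5.2e-18). The other neighbours that fell were ATM1, SUP45, MRPS9, RTC2, YMR317W and FET4, with log2 fold changes between -0.28 and -0.15. The others that rose were ISF1, YCR102C, PAU3 and CNE1, from 0.13 to 0.34, and YOL085C, at 0.68 with only 34.9 ± 11.9 normalised counts with lectin and 21.8 ± 4.09 in the control (SD, n = 6 each). Leaving out single samples ended the calls of 5 of these neighbours. The calls were lost for YOL085C (0.57 to 0.63) without control 8 or lectin 2, 3 or 5, for ATM1 (-0.14 to -0.13) without control 7 or 8 or lectin 3 or 6, and for FET4 (-0.19 to -0.17) without control 3, 4, 7 or 8 or lectin 2 or 8. They were also lost for PAU3 (0.18 to 0.20) without control 2, 3, 4 or 8 or lectin 2, 4 or 5, and for CNE1 (0.11 to 0.14) without any 1 control sample or lectin 3, 4, 6 or 8. With all samples, YOL085C also lost its call in limma-voom (0.60) and CNE1 with all genes of at least 1 count tested (0.13). All 4 nearest genes of SFA1 were not called.

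**Figure D3:**
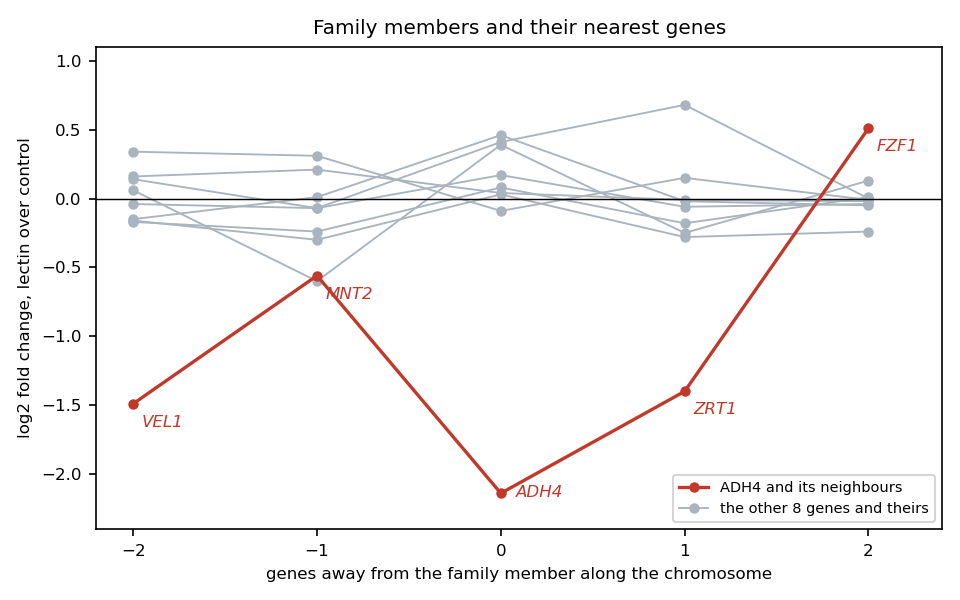
Log2 fold change, lectin over control (vertical axis), of each family member at position 0 and of the nearest 2 protein-coding genes on either side (horizontal axis, in genes along the chromosome). ADH4 and its neighbours are in red, with VEL1 at -1.49, MNT2 at -0.56, ZRT1 at -1.40 and FZF1 at 0.51; the other 8 members and their neighbours are in grey.

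The genes whose profile over the 12 samples was most like that of ADH4 were taken by the root mean square difference of log2(normalised count + 1), centred on each gene's mean, among 5842 genes with a mean of at least 50. They were FRE7 (a ferric reductase gene, 0.317), VEL1 (0.356), ZRT1 (0.374), CTR3 (a copper transporter gene, 0.398) and CTR1 (a copper transporter gene, 0.466). Their log2 fold changes lay between -1.54 and -1.22. As they were picked for closeness to ADH4 over both groups, their fall with lectin follows from the choice.

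The same measure was used for ADH1 after its values were seen. The closest profiles were those of NIS1 (a bud neck protein gene, 0.0964), RTS3 (0.134), YNL277W-A (0.140), ENO2 (0.142) and SOH1 (a Mediator subunit gene, 0.153). ENO2 encodes the glycolytic enolase and had 102929, 80563, 94011, 106151, 70053 and 94281 normalised counts in lectin 2, 3, 4, 5, 6 and 8, against 74858 to 83494 in the control samples. As with ADH1, lectin 2, 4, 5 and 8 lay above all control samples and lectin 3 and 6 did not, with lectin 6 below every control sample. As these genes were picked for closeness to ADH1 over the same samples, such likeness follows from the choice. ENO2 was not called over all samples (log2 fold change 0.18). It was called higher without lectin 3 (0.22) and without lectin 6 (0.25). ADH4, by contrast, was within 11112 to 12535 in all lectin samples.

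**Figure D4:**
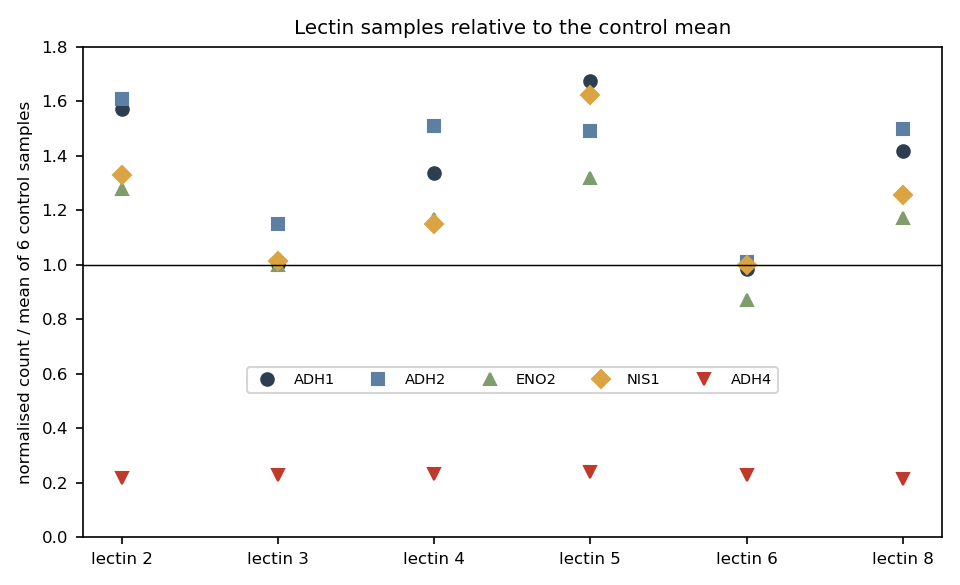
Normalised counts of ADH1, ADH2, ENO2, NIS1 and ADH4 in the 6 lectin samples (horizontal axis), each divided by the gene's mean over the 6 control samples (vertical axis; the line at 1 is the control mean). ADH1 is near the control mean in lectin 3 and 6 and above it in lectin 2, 4, 5 and 8, while ADH4 is low in all 6. ADH2 is near its control mean only in lectin 6. In lectin 3, at 20591 normalised counts, ADH2 is above that mean but inside the control range of 15340 to 21289. ENO2 and NIS1 were picked for closeness to ADH1 over the same samples.

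The steps next to the alcohol dehydrogenases were described from a list of 12 genes between pyruvate and acetate. With lectin 6 fell, 1 rose and 5 were not called, 58.3% called against 31.5% of all tested genes, and the median log2 fold change was -0.12. PDC1, known as the major gene of pyruvate decarboxylase, which makes acetaldehyde, had 52337 ± 6827 normalised counts with lectin and 45131 ± 7455 in the control (SD, n = 6 each). It was not called (log2 fold change 0.21 ± 0.102 SE). Among the fits with 1 sample left out, it was called higher without control 7, at 0.29. PDC6, another decarboxylase gene, named after its values were seen, had 52129 ± 3593 with lectin and 54049 ± 4607 in the control (SD, n = 6 each). It was not called (-0.05 ± 0.062 SE). PDC5, a further decarboxylase gene, fell (-0.50 ± 0.049 SE; DESeq2 adjusted p = 6.2e-22). ALD6, the cytosolic acetaldehyde dehydrogenase gene that opens the path to acetate, fell (-0.40 ± 0.054 SE; DESeq2 adjusted p = 6.5e-12), as did ACS2, an acetyl-CoA synthetase gene (-0.55 ± 0.055 SE; DESeq2 adjusted p = 2.5e-21). The 1 gene that rose was ACS1, the other acetyl-CoA synthetase gene of the list (0.26 ± 0.091 SE, DESeq2 adjusted p = 0.018). It was named after its values were seen, and its call was not followed under other settings.

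Other genes for alcohol and aldehyde oxidoreductases went both ways. Of 16 listed, 14 were tested, of which 3 rose, 4 fell and 7 were not called (31.5% of all tested genes were called), with a median log2 fold change of 0.019. Those called with the greatest change were BDH2, given above, ARI1 (an aldehyde reductase gene, -0.30 ± 0.060 SE; DESeq2 adjusted p = 9e-06) and AAD4 (an aryl-alcohol dehydrogenase relative, 0.26 ± 0.062 SE; DESeq2 adjusted p = 0.00027). Beside SFA1 in formaldehyde detoxification, the formylglutathione hydrolase gene YJL068C (0.08 ± 0.042 SE) and the formate dehydrogenase gene FDH1 (0.10 ± 0.081 SE) were not called. In this pair 0 genes were called by DESeq2, edgeR or limma-voom, and 0 had an unadjusted DESeq2 p under 0.05.

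Of 12 listed regulators of alcohol dehydrogenase genes, 4 rose, 2 fell and 6 were not called (31.5% of all tested genes were called), with a median log2 fold change of 0.014. ADR1, the activator of ADH2, had 4195 ± 436 normalised counts with lectin and 4059 ± 160 in the control (SD, n = 6 each) and was not called (log2 fold change 0.05 ± 0.064 SE). GCR1, an activator of glycolytic genes and ADH1, rose (0.35 ± 0.051 SE; DESeq2 adjusted p = 2.5e-10), and MIG1, the gene of a glucose-dependent repressor, rose (0.25 ± 0.069 SE; DESeq2 adjusted p = 0.0018). ZAP1 had the lowest log2 fold change of the 12, given above.

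**Figure D5:**
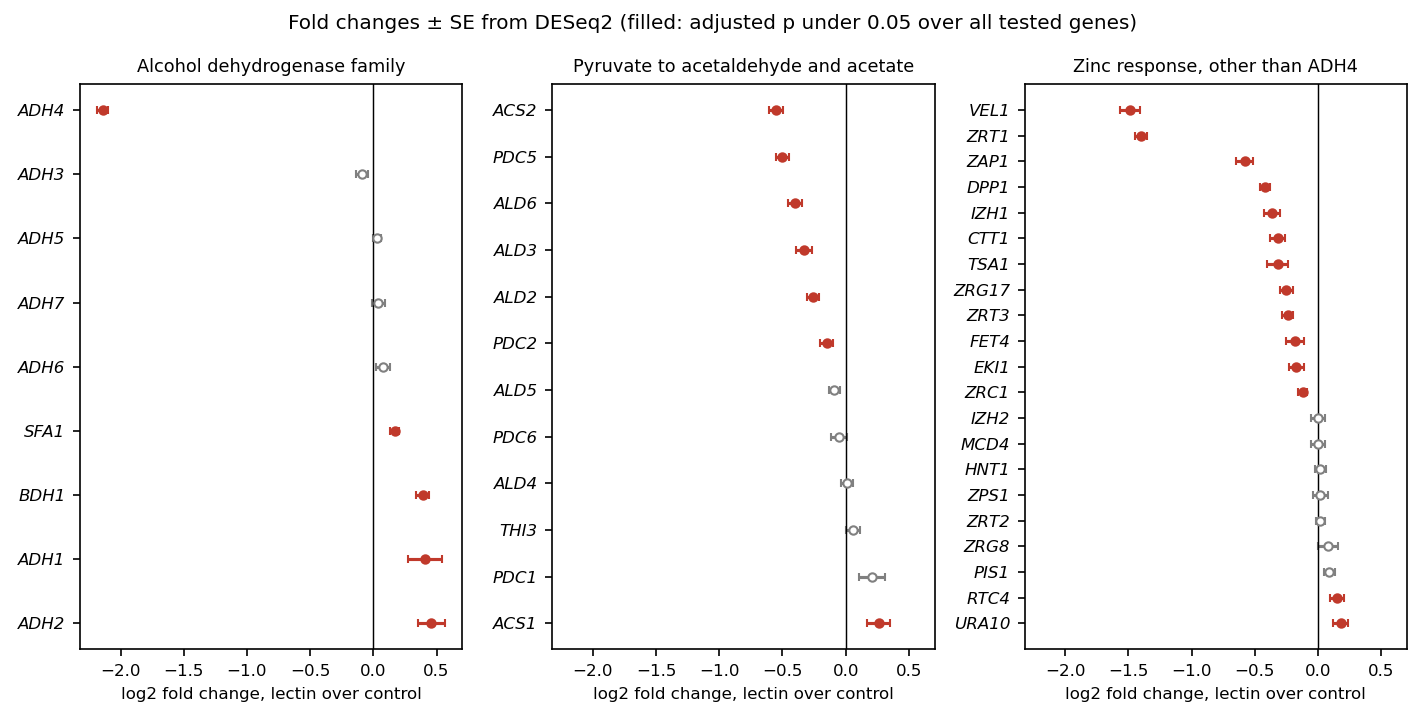
Log2 fold changes, lectin over control, with SE bars, for the 9 family members (left), 12 genes from pyruvate to acetate (middle) and 21 zinc response genes (right); filled red points were called by DESeq2 and open grey points were not. ADH4 at -2.14 is the lowest value shown, as the family was chosen on it, while ADH1, ADH2, BDH1 and SFA1 lie between 0.17 and 0.46.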

How the data were processed

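The authors deposited unnormalised gene counts of 12 RNA-seq samples, 6 lectin and 6 control, grouped here by title. Per the submitters' processing notes and the design text, poly-A selected, strand-specific paired-end libraries were trimmed (fastp is named), aligned with HISAT2 to the R64 reference and counted by the authors with featureCounts. Versions, annotation and the handling of strand and of multi-mapping reads are not given in the sources used here. The 9 members, the gene lists and the rule for naming genes were chosen with earlier results of these data known.

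A gene had to reach 10 counts in 6 or more samples, and those that did were tested with the Wald test of DESeq2 1.42.0 (R 4.3.3; median-of-ratios size factors, Benjamini-Hochberg adjustment), the tool named in the design text. Fold changes are unshrunken, lectin over control. edgeR 4.0.16 (quasi-likelihood), limma-voom (limma 3.58.1), other scaling and filters, a replicate block and leaving out each sample were alternatives. The scripts were tested on simulated data. Coding lengths, coordinates and sequences came from RefSeq R64, and identity from global alignment (Biopython 1.88). From each list, the called genes with the 3 largest absolute changes are named, plus PDC1, ZAP1, ZRT1 and ADR1, and neighbours where called. Naming ZRT2, ACS1, YJL068C and FDH1 followed sight of their values. Any 2 samples of a group differed by more than sampling noise (chi-square per degree of freedom 6.81 to 60.6 over 30 pairs), so none was taken for a library deposited again. This does not show that they came from separate cultures, and the p-values measure the spread between these samples, which may be technical.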

Additional observations from a re-analysis of the deposited data

Results flagged for a closer look

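Normalised counts of the 9 members and the 3 measures of balance were examined in both groups, 24 groups of 6 values, with Dixon's 95% limit on how far the top or bottom value stands from its neighbour. Chance gives 1.2 such groups. There was 1 here. In lectin 4, SFA1 stood at 25221 normalised counts, while the remaining 5 lectin samples had 23045 to 23802. The gap was 0.652 of the range. The other lectin samples also lay above all control samples in this gene.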

How the results depend on the processing

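Of 162 member values under 18 other settings, 159 gave the same direction and the same call. ADH3 (-0.09) was called lower without lectin 5 (-0.12) and in the 10 samples of the block fitted without it (-0.12, chosen after seeing the data). Replicate numbers gave no sign of pairing: the deviations of the 5 same-numbered pairs correlated at -0.233 to 0.254. This does not show whether same-numbered samples were handled together. With the replicate block, 1751 genes and 4 members were called, ADH1 not among them (0.33), and the same samples without the block gave 2336 and 6. With 1 sample left out, log2 fold changes ran from -2.16 to -2.12 for ADH4, from -0.12 to -0.07 for ADH3, from 0.34 to 0.49 for ADH1 and from 0.41 to 0.54 for ADH2, and from 5 to 6 members were called. edgeR and limma-voom each called 5 members. Over all tested genes, 1965 were called with all samples and from 1656 to 2419 with 1 sample left out, the most without lectin 5. Of the 21 Zap1 genes, 14 were called with all samples, 12 to 15 with 1 left out, 13 in limma-voom and 11 with the block. With 1 sample left out, 6 to 8 genes were called in the list from pyruvate to acetate. The range was also 6 to 8 for the other oxidoreductases, and 6 regulators were called each time. The lectin minus control difference in the ADH4 share of ADH1, ADH3 and ADH4 was -28.08 percentage points and became -25.12 with ADH1 and ADH2 merged, which adds ADH2 to the sum. Of 612 values for 34 other genes named, 565 kept direction and call, 42 lost and 5 gained the call. With the replicate block, YOL085C (0.56), ATM1 (-0.13), FET4 (-0.11), PAU3 (0.21), CNE1 (0.15) and NIS1 (0.21) were not called, and PDC1 was called higher (0.23). The same 10 samples without the block also called PDC1 (0.23) and did not call YOL085C (0.61), ATM1 (-0.13) or FET4 (-0.11). The median log2 fold change of all genes stayed within 0.0031 of 0 under every setting.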

Other observations

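PDC6, known as a minor pyruvate decarboxylase gene, was chosen for mention after its values were seen. Its level was 1672 ± 134 CPM per kilobase of coding length with lectin and 1733 ± 124 in the control (SD, n = 6 each), close to the 1676 ± 199 with lectin and 1446 ± 222 in the control of PDC1, while PDC5 was at 59.5 to 71.9 in lectin samples and at 91.7 to 98.7 in control samples. The coding sequences of PDC1 and PDC6 were 75.0% identical and shared 0 of 1643 stretches of 50 bases. ADH2, known to be repressed by glucose, was at 956 to 1481 CPM per kilobase in lectin samples and at 782 to 1106 in control samples, at rank 2 of the family with lectin and at rank 4 in the control.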
